A study of Mus musculus with 17 samples.

Results

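Cd44 and 6 integrin chains, Itga4, Itga6, Itgae, Itgal, Itgb1 and Itgb2, were followed in the thymus of 17 mice. They are 7 of the 18193 genes that have a probe set annotated to a single gene symbol on the Affymetrix mouse genome array, and 22 of the 34945 such probe sets read them. Each gene is represented by its brightest probe set, judged by the mean of all 17 arrays, and its other probe sets are described beside it. Cd44 was chosen by the wide spread of its values among the lymphomas, and its difference between tumor-free and control thymi was known too, so these Cd44 values are a description and stand as no independent evidence. Values are log2 signals per probe set, so a difference of 1 is a doubling of signal. A level is never compared between genes, because probe sets differ in how brightly they report.

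All mice were C57Bl/6. The control group held 5 Tcf1+/- mice (wt/ΔVII), which carry the ΔVII allele of the transcription factor Tcf1 on one chromosome and are therefore heterozygous rather than wild type. A group of 4 Tcf1-/- mice (ΔVII/ΔVII) had no tumor, and 8 Tcf1-/- mice had a thymic lymphoma. The labels give the RNA as that of homogenized thymus and the methods name homogenized thymocytes, with no purification of a cell type described, so fewer cells of a type and less RNA per cell cannot be told apart in any value below. Every mouse was a separate animal and had an array of its own. Ages are not given for these arrays in the labels, though the study describes its tumor-free Tcf1-/- mice as similar in age to those with tumors. The mutation is present in every cell of the Tcf1-/- mice rather than in T cells alone. The gene that encodes Tcf1 itself was not analysed here, so the genotype labels were not checked against it.

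CD44 is a receptor for hyaluronan that marks the earliest thymocytes, is lost as they commit to the T lineage, and returns on activated and memory T cells as well as on many myeloid cells. Integrins are pairs of an alpha and a beta chain. Itga4 and Itga6 pair with Itgb1 in receptors for fibronectin and VCAM-1 and for laminin, Itgal pairs with Itgb2 to form LFA-1, which binds ICAMs, and Itgae pairs with Itgb7 to bind E-cadherin. Thymocytes use these receptors to hold on to stroma and to move through the thymus, and both Itgb1 and Itgb2 have further alpha partners on myeloid cells.

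In build GRCm38.p6 of RefSeq, 3 of the genes lie on chromosome 2, Itga6 at chr2:71786886-71858427, Itga4 at chr2:79255426-79333114 and Cd44 at chr2:102811141-102901669. Itgal lies at chr7:127296139-127335137, Itgb1 at chr8:128685654-128733579, Itgb2 at chr10:77530329-77565708 and Itgae at chr11:73090505-73147449. The 250 bases before the transcript start that the promoter table uses are shown for Cd44 (chr2:102901666-102901915, minus strand, of which 4 bases lie inside the gene as listed above) and Itga4 (chr2:79255176-79255425, plus strand), because the main probe sets of both genes rose in tumor-free Tcf1-/- thymi and Tcf1 is a DNA-binding factor. They are written 5′ to 3′ along the gene, from RefSeq, GRCm38.p6, and capitals mark the letters of a motif that was searched on both strands.
Cd44: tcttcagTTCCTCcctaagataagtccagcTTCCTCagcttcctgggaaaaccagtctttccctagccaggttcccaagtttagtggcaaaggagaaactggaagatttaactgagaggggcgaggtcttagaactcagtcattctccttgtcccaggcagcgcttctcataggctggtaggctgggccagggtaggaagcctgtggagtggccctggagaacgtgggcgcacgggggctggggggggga
Itga4: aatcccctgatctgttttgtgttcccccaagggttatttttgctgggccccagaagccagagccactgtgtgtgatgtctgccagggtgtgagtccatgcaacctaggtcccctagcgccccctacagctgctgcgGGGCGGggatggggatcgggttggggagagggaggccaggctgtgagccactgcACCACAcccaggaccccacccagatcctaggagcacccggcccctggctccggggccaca
The TCF/LEF letters CTTTGA or CTTTGT were in neither stretch, while 27.7% of 27025 listed promoters of the same length hold one of them. The table has 1 more of the 7 genes, Itgb1, with 1 match to CTTTGT, and no entry for Itga6, Itgae, Itgal or Itgb2. The Cd44 stretch has 2 matches to the ETS letters GAGGAA, both on the opposite strand, and 23.1% of promoters hold one. The Itga4 stretch has 1 match to the Sp1 letters GGGCGG, held by 32.9% of promoters, and 1 match to the RUNX letters TGTGGT or TGCGGT, held by 18.7%. A match is a description of the letters and not a site of binding, and the absence of a match says only that these letters are not in this window. The G and C content was 56.4% for Cd44 and 64.0% for Itga4.

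Several features of the whole series touch these genes. The filter on low values kept 13755 genes whose signal exceeded the 40th percentile on 4 or more arrays, and all 7 genes passed it, with 17 of their 22 probe sets. The arrays of Tcf1+/- mice 1 and 2 and of lymphomas 1 and 2 stood apart, with an interquartile range of log2 values of 2.93 to 3.06 against 3.49 to 3.75 on the other 13, and values without them are given beside the results that they moved. Y-linked signal was seen in 4 of 5 controls, in 4 of 4 tumor-free Tcf1-/- thymi and in 2 of 8 lymphomas, so sex was uneven between groups. The mean level of 11 thymocyte marker genes was 12.0 to 12.4 in the controls, 11.1 to 11.5 in tumor-free Tcf1-/- thymi and 10.9 to 12.1 in lymphomas, so the labelled tissue carried T-lineage transcripts on every array.

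Cd44, Itga4 and Itgae rose in Tcf1-/- thymi without a tumor, with every such thymus above every control in the main probe sets. For Itga4 the call rests on its main probe set, since none of its others above the filter passed, as given below. The study's text describes Cd44, and the ligand genes Fn1 and Cdh1 below, as low in the tumor-free group, which is the opposite of the direction of the deposited values under the labels' groups. Cd44, Itga4 and Itgae are 3 of the 7 genes, all higher. Between tumor-free Tcf1-/- and control thymi limma called 14.8% of all tested genes (10.1% higher and 4.7% lower). Between the same groups 17.3% of tested genes did not overlap (11.2% higher and 6.11% lower). In the lymphomas, Itga4, Itgae and Itgb2 were lower than in tumor-free Tcf1-/- thymi, 3 of 7 where 14.7% of genes were called (6.34% higher and 8.35% lower), and Itga4 and Itgb2 were lower than in the controls, 2 of 7 where 12.7% were called (8.51% higher and 4.21% lower). The 3 comparisons share groups, so they are not independent of each other. All 7 genes were listed with earlier results of these data known. Their counts here and the medians that follow are therefore a description and no test of the set. The median log2 difference of the 7 genes was 0.85 between tumor-free Tcf1-/- and control thymi, -2.15 between lymphomas and tumor-free thymi and -0.78 between lymphomas and controls, beside medians of -0.01, 0.10 and 0.06 over all tested genes.

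**Figure D1:**
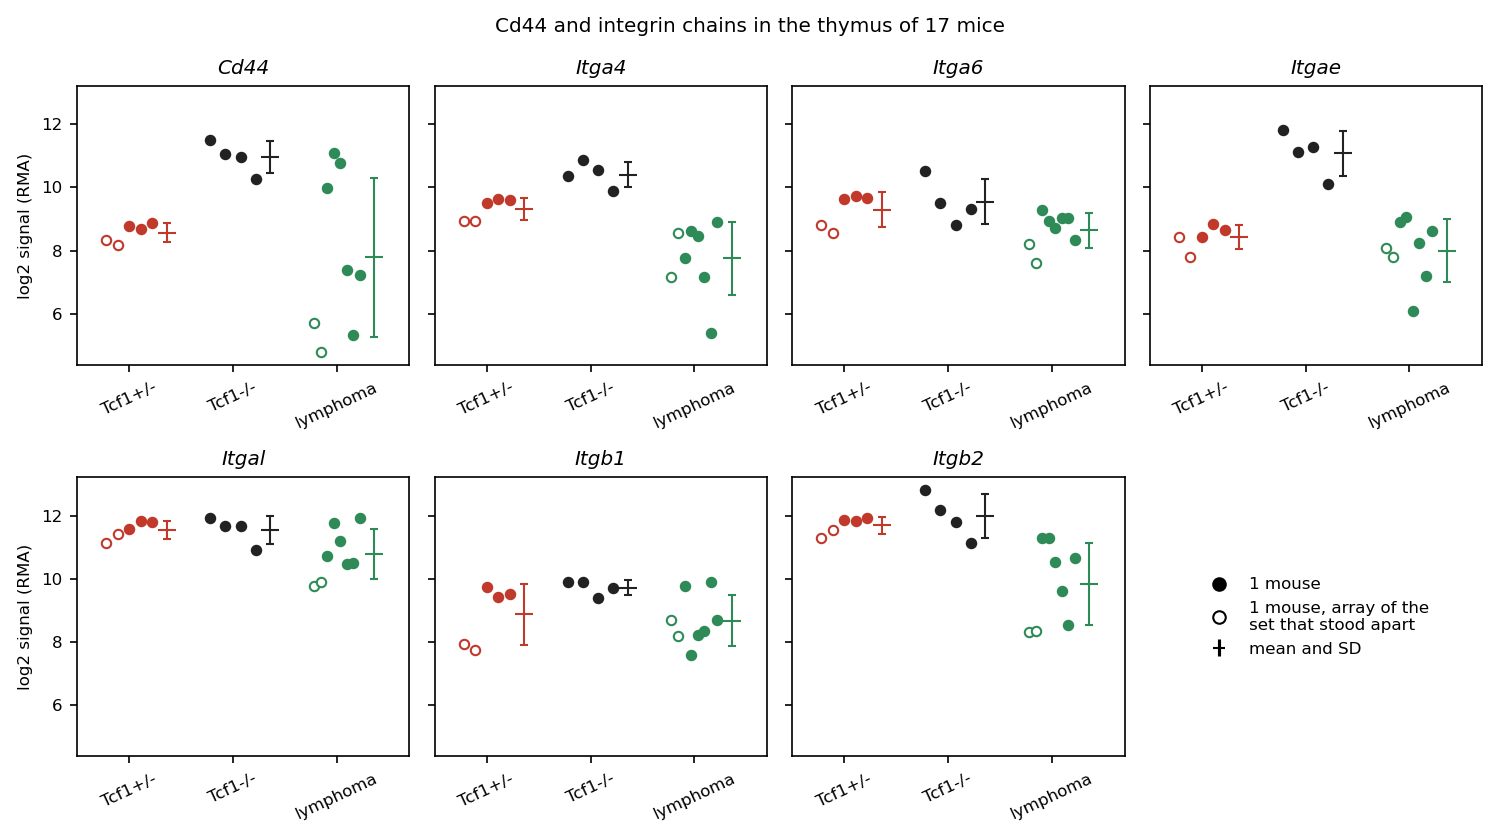
Log2 signal (RMA, vertical axis) of the 7 genes in each mouse of the 3 groups. Each point is 1 mouse, open points are the 4 arrays that stood apart, and the bar at the right of each group is the mean with its SD (5 Tcf1+/-, 4 Tcf1-/- and 8 lymphoma mice). Cd44 in lymphomas runs from 4.79 to 11.09, while the 5 controls stay between 8.19 and 8.87.

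Cd44, the hyaluronan receptor, was at 8.33, 8.19, 8.77, 8.68 and 8.87 in Tcf1+/- mice 1 to 5, and at 11.50, 11.04, 10.96 and 10.27 in the 4 Tcf1-/- mice without a tumor. The lowest tumor-free Tcf1-/- thymus lay well above the highest control. The difference was 2.38 (SE 0.25, limma adjusted p = 0.000244), a 5.19-fold higher signal, and leaving out any 1 of the 9 mice kept it between 2.19 and 2.60 with the call unchanged. In an exact two-sided permutation test of the means p was 0.00794, the smallest that 5 against 4 mice can give. Without the 2 controls on arrays that stood apart the difference was 2.17 (limma adjusted p = 0.0021). In 1 fit of all 17 arrays, which takes its error also from the uneven lymphomas, Cd44 did not pass (limma adjusted p = 0.211), nor did Itga4 (0.253).

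The lymphomas did not share a Cd44 level. The study sorts its lymphomas by thymocyte stage, as DN1, DN3, ISP or DP or mixtures of these, from surface markers that include CD44. The study marks the phenotype of each array tumor on the axis of a figure, but the sample titles do not give it. The part of tumor stage in this spread was therefore not tested. Lymphomas 4, 5 and 3 were at 11.09, 10.77 and 9.98, above every control, and the first 2 lay within the range of the tumor-free Tcf1-/- thymi. Lymphomas 6 and 8 were at 7.38 and 7.22, and lymphomas 1, 7 and 2 were at 5.72, 5.33 and 4.79. These 5 all lay below the lowest control. In this probe set no lymphoma was within the range of the controls. In the other probe sets some were, in part only through the controls on arrays that stood apart.

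From the lowest to the highest lymphoma the Cd44 signal spanned 6.31 on the log2 scale, a 79.1-fold range, and the SD was 2.52 against 0.29 in controls and 0.51 in tumor-free Tcf1-/- thymi. The median SD of tested genes among the lymphomas was 0.40, and 11 of the 13755 tested genes had a larger SD there than Cd44. Cd44 was chosen by this spread, so its rank is a description only. The SDs of the integrin chains among the lymphomas were 1.29 for Itgb2, 1.16 for Itga4, 0.99 for Itgae, 0.80 for Itgal and Itgb1, and 0.56 for Itga6. Lymphomas 1 and 2, on arrays that stood apart, were among the 3 lowest, but lymphoma 7, at 5.33, was on an array of the larger set. Among the 6 lymphomas of that larger set Cd44 still ran from 5.33 to 11.09.

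The mean Cd44 level in lymphomas was 7.78 ± 2.52 (SD, n = 8). Its difference from tumor-free Tcf1-/- thymi, -3.16 (SE 1.14, limma adjusted p = 0.0821), and its difference from controls, -0.78 (SE 1.02, limma adjusted p = 0.721, 95% interval -2.96 to 1.39), did not pass the threshold. A mean describes these 8 values poorly, since none lies between 7.38 and 9.98. The first difference passed when lymphoma 4 or lymphoma 5 was left out (lowest limma adjusted p = 0.0342), the 2 highest tumors. Within the array sets, lymphomas differed from controls by -3.01 on the 4 arrays that stood apart and by -0.14 on the others.

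The other Cd44 probe sets had the same 3 lymphomas at the top and the same one at the bottom, in part in another order. In 1434376_at the 3 highest were numbers 5, 4 and 3, at 10.76, 10.29 and 9.96, and the lowest was number 2, at 4.97. In 1452483_a_at the 3 highest were numbers 3, 4 and 5, at 7.39, 6.66 and 6.57, with number 2 lowest at 3.87. In both of these probe sets some lymphomas lay within the range of the controls, numbers 6 and 8 in 1434376_at (7.56 and 7.46, controls 6.67 to 8.49) and numbers 4 to 8 in 1452483_a_at (4.57 to 6.66, controls 4.48 to 6.76). The low ends of these control ranges came from controls 1 and 2, on arrays that stood apart. Controls 3 to 5 ran from 8.40 to 8.49 in 1434376_at and from 6.27 to 6.76 in 1452483_a_at. Numbers 6 and 8 lay below controls 3 to 5 in the former and numbers 6 to 8 in the latter. Numbers 4 and 5 stayed within their range in 1452483_a_at. The difference between tumor-free Tcf1-/- and control thymi was 3.12 and 2.65 in these 2 probe sets (limma adjusted p over 24735 probe sets = 0.00183 and 0.00758). The fall from tumor-free Tcf1-/- thymi to lymphomas was -3.16 and -3.08, and it passed only in 1452483_a_at (limma adjusted p = 0.0706 and 0.0066). The fourth probe set, 1443265_at, was below the filter on all 17 arrays.

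**Figure D2:**
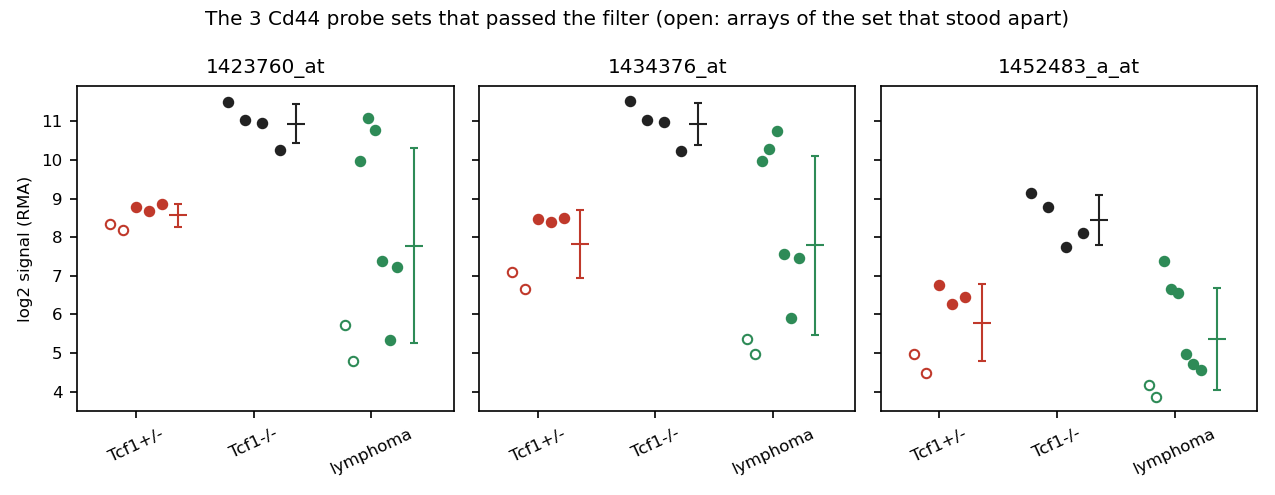
Log2 signal (RMA, vertical axis) of the 3 Cd44 probe sets that passed the filter, for each mouse of the 3 groups, with the mean and SD beside the points; open points are the 4 arrays that stood apart. All 3 probe sets show 3 lymphomas well above the other 5, and all 4 tumor-free Tcf1-/- thymi above the controls.

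Among the 4 alpha chains followed, Itgae, the chain of the E-cadherin receptor of intraepithelial and other tissue T cells, differed most between tumor-free Tcf1-/- thymi and controls. It was at 8.43, 7.80, 8.43, 8.83 and 8.67 in the controls and at 11.81, 11.11, 11.27 and 10.10 in the tumor-free Tcf1-/- thymi. The lymphomas ran from 6.08 (number 5) through a median of 8.15 to 9.07 (number 4), all below the lowest tumor-free Tcf1-/- thymus. The difference between tumor-free Tcf1-/- and control thymi was 2.64 (SE 0.33, limma adjusted p = 0.000596), a 6.24-fold higher signal. Lymphomas were lower than tumor-free Tcf1-/- thymi by -3.07 (SE 0.50, limma adjusted p = 0.00122), and this call held in all 12 fits that left out 1 mouse. Against controls the lymphomas differed by -0.43 (SE 0.42, limma adjusted p = 0.614, 95% interval -1.34 to 0.48), with 2 lymphomas above and 2 below the range of the controls. The second probe set, 1449216_at, gave 2.69, -3.34 and -0.65 for the same 3 comparisons, and the first 2 passed (limma adjusted p = 0.000578 and 0.000387).

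Itga4, the alpha chain of VLA-4, was at 8.94, 8.94, 9.51, 9.62 and 9.61 in the controls and at 10.36, 10.85, 10.53 and 9.88 in tumor-free Tcf1-/- thymi. The lymphomas ran from 5.41 (number 7) through a median of 8.11 to 8.89 (number 8). Every tumor-free Tcf1-/- thymus was above every control and every lymphoma was below every control, so the 3 groups did not overlap in this probe set. They overlapped in part in the other probe sets above the filter, lymphomas with controls in 1456498_at (where lymphoma 2, at 9.09, also lay within the tumor-free range) and 1421194_at, and tumor-free Tcf1-/- thymi with controls in 1421194_at and 1450155_at. Without the arrays that stood apart, lymphomas and controls did not overlap in 1456498_at (highest lymphoma 6.88, lowest control 7.56) or 1421194_at (6.01 and 6.26). Non-overlap between lymphomas and tumor-free Tcf1-/- thymi, which Itgae and Itga4 showed, was seen in 10.7% of tested genes (4.41% higher and 6.27% lower), and non-overlap between lymphomas and controls, which Itga4 alone showed among the 7, in 6.67% (4.78% higher and 1.9% lower).

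The Itga4 difference between tumor-free Tcf1-/- and control thymi was 1.08 (SE 0.24, limma adjusted p = 0.0122), a 2.11-fold higher signal. None of its other 3 probe sets above the filter passed in this comparison (differences 0.43, 0.45 and 0.98, lowest limma adjusted p = 0.0665). Lymphomas were lower than tumor-free Tcf1-/- thymi by -2.65 (SE 0.54, limma adjusted p = 0.00563), a 6.28-fold lower signal, in all 12 fits that left out 1 mouse, and the other 3 probe sets were also called lower there (-1.73, -1.68 and -2.36). Against controls the lymphomas were lower by -1.57 (SE 0.48, limma adjusted p = 0.0467, exact two-sided permutation p = 0.00777). This call is close to the threshold. It was lost in 8 of 13 fits without 1 mouse (without any 1 of the 5 controls, or without lymphoma 1, 3 or 6), with limma adjusted p up to 0.107 and differences of -1.74 to -1.24, and without the 4 arrays that stood apart (-1.87, limma adjusted p = 0.101). Within the array sets the difference was -1.08 on the 4 arrays that stood apart and -1.87 on the others. In the fit of all probe sets the main one missed the threshold (limma adjusted p = 0.0549), as did 1456498_at (-1.38, limma adjusted p = 0.217), while 1421194_at and 1450155_at passed at -1.29 and -1.23 (limma adjusted p = 0.00818 and 0.00463).

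Itga6, a laminin receptor chain, was at 8.81, 8.56, 9.65, 9.73 and 9.67 in the controls and at 10.52, 9.52, 8.82 and 9.31 in tumor-free Tcf1-/- thymi, and ran from 7.60 through a median of 8.83 to 9.28 in lymphomas. The groups overlapped in every comparison. The differences were 0.26 (SE 0.36, limma adjusted p = 0.736) between tumor-free Tcf1-/- and control thymi, -0.90 (SE 0.34, limma adjusted p = 0.0975) between lymphomas and tumor-free thymi and -0.64 (SE 0.30, limma adjusted p = 0.189) between lymphomas and controls. The last depended on how the 2 array sets were handled. It was -0.77 within the 4 arrays that stood apart and -0.79 within the others, and it passed without those 4 arrays (limma adjusted p = 0.0306) and with the array set as a block (-0.79, limma adjusted p = 0.00317). With the mouse number as a block it was -0.73 (limma adjusted p = 0.0215). The titles do not pair the mice by number, and the arrays that stood apart share their numbers between the groups. The other probe set, 1422444_at, gave -0.85 (limma adjusted p = 0.0359). The first difference turned to -0.14 without the 2 control arrays that stood apart.

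Itgal, the alpha chain of LFA-1, was at 11.14, 11.41, 11.58, 11.84 and 11.79 in the controls and at 11.92, 11.66, 11.67 and 10.91 in tumor-free Tcf1-/- thymi. Their means differed by -0.01 (SE 0.23, limma adjusted p = 0.981, 95% interval -0.52 to 0.50), so a difference of more than 0.52 in either direction lies outside the interval. Lymphomas ran from 9.76 through a median of 10.61 to 11.93, with 5 of 8 below the lowest control and 1 above the highest. They differed from controls by -0.78 (SE 0.34, limma adjusted p = 0.17) and from tumor-free Tcf1-/- thymi by -0.76 (SE 0.39, limma adjusted p = 0.218). The difference from controls was -1.44 within the 4 arrays that stood apart and -0.65 within the others. It passed with the array set as a block (-0.91, limma adjusted p = 0.022) or the mouse number as a block (-0.89, limma adjusted p = 0.0412). The mouse number has the limit given for Itga6. The dimmer probe set 1425367_at passed in both lymphoma comparisons (-1.18 and -0.99, limma adjusted p = 0.0211 and 0.0469).

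Of the beta chains, Itgb2, the shared chain of LFA-1 and the myeloid integrins, was lower in lymphomas. It was at 11.28, 11.54, 11.87, 11.82 and 11.93 in the controls and at 12.80, 12.17, 11.81 and 11.14 in tumor-free Tcf1-/- thymi. Lymphomas 1, 2 and 7 were at 8.30, 8.36 and 8.54, number 6 at 9.61, numbers 5 and 8 at 10.55 and 10.67, and numbers 3 and 4 at 11.28 and 11.30. The tumor-free Tcf1-/- thymi and controls overlapped (difference 0.29, SE 0.30, limma adjusted p = 0.627), while 6 of 8 lymphomas lay below both of those groups. The other 2 lymphomas were at the lower end of the control range.

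Lymphomas were lower in Itgb2 than tumor-free Tcf1-/- thymi by -2.15 (SE 0.62, limma adjusted p = 0.0341) and lower than controls by -1.86 (SE 0.53, limma adjusted p = 0.0339, exact two-sided permutation p = 0.0101). The first call was kept in 6 of 12 fits without 1 mouse and lost without tumor-free thymus 1, 2 or 3 or lymphoma 2, 6 or 7 (limma adjusted p up to 0.134). The second was kept in 5 of 13 and lost without any 1 of the 5 controls or lymphoma 2, 6 or 7 (up to 0.08). On the 4 arrays that stood apart the difference from controls was -3.08 and on the others -1.55, and without those 4 arrays neither call passed (-1.66, limma adjusted p = 0.0568, from tumor-free thymi and -1.55, limma adjusted p = 0.101, from controls). Itgb2 is read by 1 probe set, so no second reading was at hand.

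Itgb1, the beta chain of the VLA integrins, was at 7.93, 7.75, 9.73, 9.43 and 9.52 in the controls and at 9.90, 9.89, 9.39 and 9.71 in tumor-free Tcf1-/- thymi, and ran from 7.59 through a median of 8.53 to 9.89 in lymphomas. Controls 1 and 2, the arrays that stood apart, were lower than the other 3 controls by 1.72 on average, and 2.53% of tested genes differed by more between these 2 sets of control arrays. The 3 group differences were 0.85 (SE 0.42, limma adjusted p = 0.245), -1.05 (SE 0.38, limma adjusted p = 0.0817) and -0.19 (SE 0.44, limma adjusted p = 0.857) in the order used above. Without the 2 low controls the first was 0.16. The third was 0.61 within the 4 arrays that stood apart and -0.81 within the others, so its direction differed between the array sets. The other probe sets above the filter, 1426918_at and 1427771_x_at, were not called in any comparison.

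**Figure D3:**
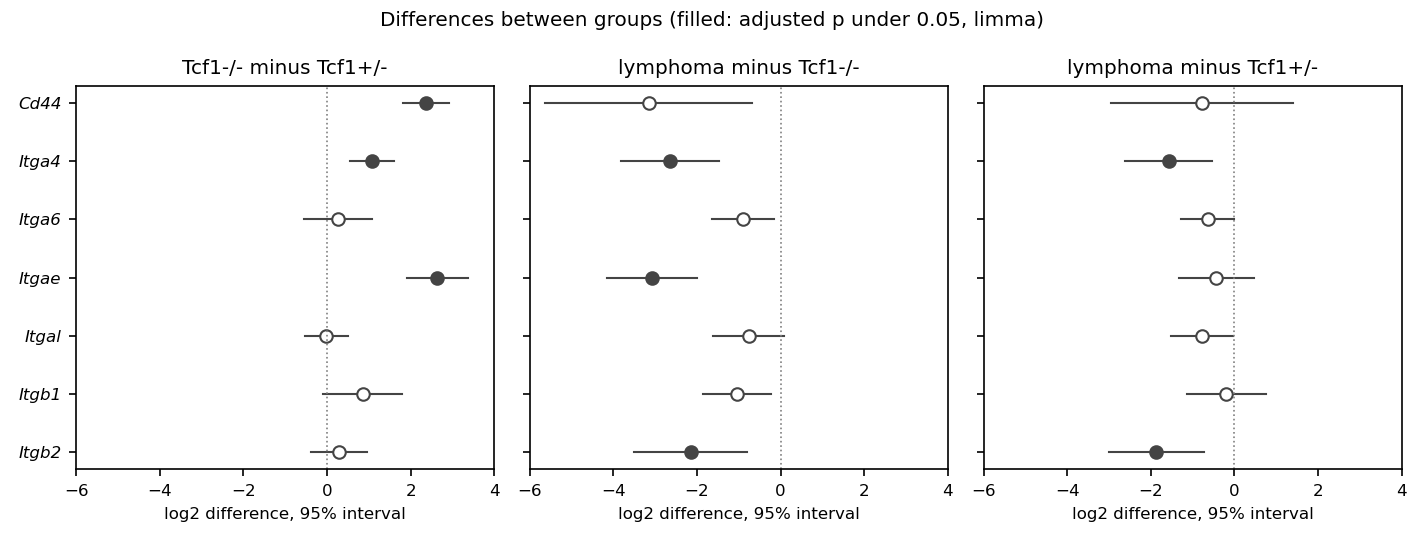
Log2 differences between group means with 95% intervals (horizontal axis) for the 7 genes in 3 pairwise comparisons; filled points passed at a limma adjusted p under 0.05. Cd44, Itga4 and Itgae lie to the right of 0 in the first panel, Itga4, Itgae and Itgb2 to the left in the second, and Itga4 and Itgb2 to the left in the third, with the Cd44 intervals the widest in both lymphoma panels.

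Set beside each other within a mouse, the lymphomas differed in which chains were low. Lymphoma 7 had low Cd44, Itga4 and Itgb2 with Itgb1 at 9.89, the highest of the lymphomas. Lymphoma 5 had Cd44 at 10.77 with Itgae at 6.08, the lowest Itgae of any mouse. Lymphoma 4 had the highest Cd44 and the lowest Itgb1, at 7.59. Across the 8 lymphomas, with each gene centred on its mean, the gene of the 7 whose values lay closest to Cd44 was Itgb2, with a root mean square difference of 1.37 beside a spread of Cd44 itself of 2.36. The closest pairs were Itga6 with Itgb1 (0.73), Itgal with Itgb2 (0.74) and Itga6 with Itgal (0.75). The last pair forms no receptor, and the 3 distances lie within the range of the SDs of the single chains. These distances describe 8 tumors that share the split between array sets.

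**Figure D4:**
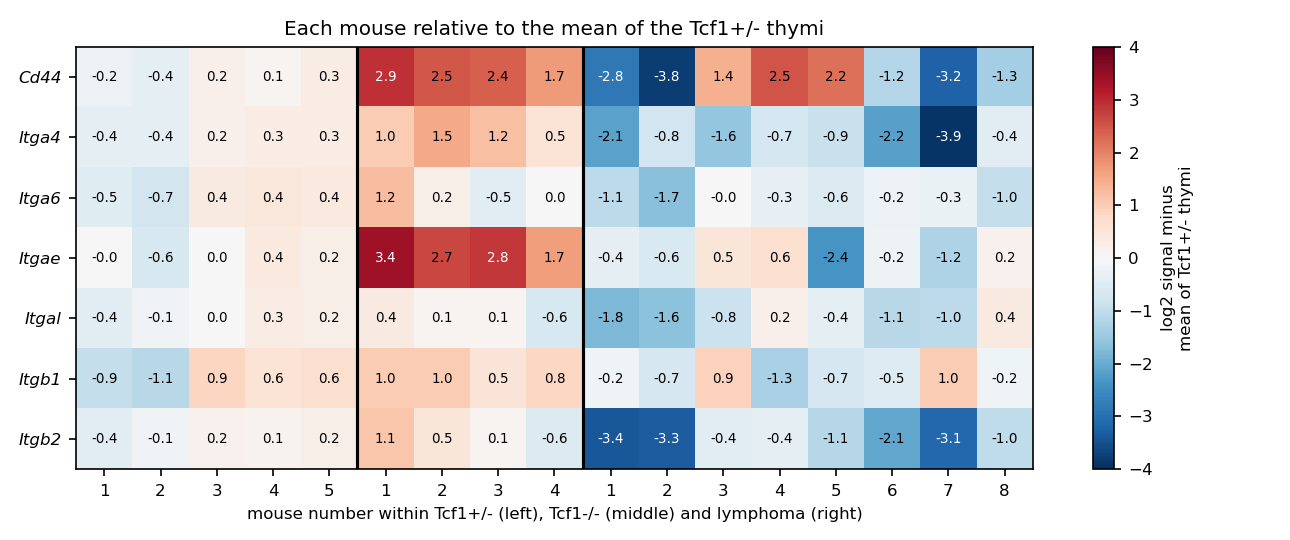
Log2 signal of each gene (rows) in each of the 17 mice (columns, in 3 blocks) minus the mean of the 5 Tcf1+/- thymi; red is above and blue below that mean, and each cell prints its value. Lymphomas 3, 4 and 5 are red for Cd44 and the other 5 are blue, while Itga4 and Itgb2 are blue in all 8 lymphomas.

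The genes whose values were nearest to each receptor over all 17 arrays were found by the same distance. For Cd44 they were Smpdl3a, Cd48 and Arhgap26, at 0.954, 0.984 and 0.999 beside a spread of Cd44 of 2.06. For Itgae they were the MHC class II genes H2-Eb1 (0.44) and Cd74 (0.50), with Plcg2 (0.47) between them, beside a spread of 1.44. H2-Eb1, for example, was at 10.4 ± 0.39 in controls, 13.1 ± 0.62 in tumor-free Tcf1-/- thymi and 9.72 ± 0.61 in lymphomas (SD, n = 5, 4 and 8). For Itgb2 the nearest were the leukocyte surface antigen Cd52 (0.56), Lrrfip1 and Gbp6, for Itga4 Ms4a6b (0.64), Fxyd5 and Vsir, for Itgal Adam17 (0.32), Ep300 and Herpud2, for Itga6 Aldh3a2 (0.27), Tpp1 and Cited2, and for Itgb1 Tns3 (0.35), Usp8 and St3gal4. Over the 8 lymphomas alone, the nearest to Cd44 were the interferon-induced GTPase gene Gbp8 (0.82), Morc1 (0.83), Bst1 (0.92), Dnajc6 (1.02) and Cacna1c (1.09). The distances are a description over these arrays, which share the array sets and the makeup of the tissue.

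The counts for gene lists here and below stand beside the shares of all tested genes called. These were 14.8% for tumor-free Tcf1-/- thymi against controls, 14.7% for lymphomas against tumor-free thymi and 12.7% for lymphomas against controls. Of 14 other integrin chains that passed the filter, 6 rose and 0 fell in tumor-free Tcf1-/- thymi against controls, with a median difference of 0.56. The largest changes were those of Itgam (2.71, limma adjusted p = 0.0118), the alpha chain of Mac-1, Itgax (2.33, limma adjusted p = 0.00307), the dendritic cell chain of CD11c, Itgb7 (1.77, limma adjusted p = 0.00186), the partner of Itgae and Itga4, and Itga1 (1.47, limma adjusted p = 0.000729), a collagen receptor chain. Between lymphomas and tumor-free Tcf1-/- thymi 0 rose and 4 fell, and they were Itgam (-3.19), Itgax (-2.66), Itgb7 (-2.46) and Itga1 (-1.58). Between lymphomas and controls 2 rose, Itga9 (1.48, limma adjusted p = 0.0346) and Itgb5 (1.45, limma adjusted p = 0.000416), and 0 fell. Itgb7 was at 8.30 ± 0.06 in controls, 10.1 ± 0.67 in tumor-free Tcf1-/- thymi and 7.61 ± 0.94 in lymphomas, and its difference between lymphomas and controls (-0.69, limma adjusted p = 0.303) did not pass. Without the 4 arrays that stood apart, 5 chains rose in tumor-free Tcf1-/- thymi, and 1 rose and 1 fell in lymphomas against controls.

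Among 13 ligands of integrins or CD44 and their modifiers, 6 rose and 0 fell in tumor-free Tcf1-/- thymi, with a median of 0.04. Those with the largest changes were Fn1, fibronectin and a ligand of Itga4 with Itgb1 (3.82, limma adjusted p = 0.00609), Cdh1, E-cadherin and the ligand of Itgae with Itgb7 (3.63, limma adjusted p = 0.00014), Mmp9, a protease that binds CD44 (2.09, limma adjusted p = 0.00193), and Vcam1, a ligand of VLA-4 (1.96, limma adjusted p = 0.0259). In lymphomas against tumor-free Tcf1-/- thymi 3 fell, Fn1 (-4.20), Cdh1 (-2.94) and the LFA-1 ligand Icam1 (-2.08), and 0 rose. Against controls the laminin chain Lamb1 rose (3.23, limma adjusted p = 0.0166) and the LFA-1 ligand Icam2 fell (-1.41, limma adjusted p = 0.000544). Lamb1 was itself uneven among lymphomas, at 7.42 ± 1.97 (SD, n = 8), and its call was lost without the 4 arrays that stood apart, where 4 rather than 6 ligands rose in tumor-free Tcf1-/- thymi.

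Of 17 genes that switch integrins on from inside the cell, 1 rose and 2 fell in tumor-free Tcf1-/- thymi, the adaptor Skap2 (1.64) against its T-cell relative Skap1 (-1.25) and the Ras activator Rasgrp1 (-1.35). In lymphomas against tumor-free Tcf1-/- thymi 4 fell and 0 rose, Skap2 (-3.06), Dock2 (-1.29), the integrin-activating cytoskeletal protein Tln1 (-0.96) and Rap1b (-0.77), and against controls 3 fell and 0 rose. Cytip, a regulator of LFA-1 adhesion, was the largest of those 3 (-1.45, limma adjusted p = 0.00313). On the 13 arrays left without those that stood apart, 7 fell in lymphomas against controls, 5 fell against tumor-free thymi, and 1 rose and 4 fell in tumor-free Tcf1-/- thymi. Of 15 adhesion adaptors downstream of integrins, 2 rose in tumor-free Tcf1-/- thymi, Filip1l (2.51) and vinculin, Vcl (1.46). Against tumor-free thymi 3 fell in lymphomas, Filip1l (-2.58), filamin, Flna (-1.16), and Zyx (-1.15), and against controls 1 fell, Flna (-0.72). Several counts of this paragraph lie near the shares of all tested genes and are not read as results about the lists. The adaptor counts without the 4 arrays were 3 higher and 2 lower in tumor-free Tcf1-/- thymi, and 1 higher and 3 lower in lymphomas against them.

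Of 12 partners and membrane linkers of CD44, 3 rose and 0 fell in tumor-free Tcf1-/- thymi, Cd74 (2.88), which associates with CD44 in the receptor for macrophage migration inhibitory factor, and the hyaluronan receptors Stab2 (1.84) and Lyve1 (0.93). In lymphomas against tumor-free Tcf1-/- thymi Cd74 (-3.40), Stab2 (-2.01) and moesin, Msn (-1.03), which ties CD44 to actin, fell and 0 rose. Against controls Msn alone of the 12 fell (-0.59, limma adjusted p = 0.0428). That call was lost without the 4 arrays that stood apart, where 3 of the 12 rose and 1 fell in tumor-free Tcf1-/- thymi.

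Genes of the thymocyte stages that carry CD44, DN1 and DN2, gave 7 higher and 0 lower of 9 in tumor-free Tcf1-/- thymi, with a median of 1.93, and the largest were Mef2c (4.37), Hhex (3.22), Lyl1 (2.75) and the stem cell factor receptor Kit (2.60). In lymphomas against tumor-free thymi 7 of 9 fell, and against controls 0 of 9 passed by limma (2, Il7r and Lyl1, at an unadjusted p under 0.05), with a median difference of 0.01. Of these 9, Flt3 is also counted with the dendritic cell markers and Il7r with the mature T-cell genes. Markers of other cell types moved in the same comparisons, as given below, and their part in these counts was not tested. Of 9 genes of memory-like and innate-like T cells, which carry CD44 too, 7 rose in tumor-free Tcf1-/- thymi, led by Ccl5 (3.57), Maf (3.52), Tbx21 (2.57) and Cxcr3 (2.50), and 7 fell from there to lymphomas. Against controls 1 rose in lymphomas, Sox13 (1.91), and 3 fell, Nkg7 (-2.38), Cxcr3 (-0.83) and Tbx21 (-0.57). Of 9 double-positive genes 8 were lower than in controls in tumor-free Tcf1-/- thymi and 8 in lymphomas, and of 8 DN3 and pre-TCR genes 4 were higher and 3 lower than in controls in both of these groups. Between lymphomas and tumor-free Tcf1-/- thymi 1 DN3 gene was higher, and 0 of 9 double-positive genes passed by limma (0 also at an unadjusted p under 0.05). Mature and migrating T-cell genes gave 3 higher and 2 lower of 8 in tumor-free Tcf1-/- thymi, and 6 of 8 fell in lymphomas against either group. On the 13 other arrays, 4 of 8 mature genes fell in lymphomas against controls and 5 of 9 memory-like genes against tumor-free thymi, and the higher DN3 gene was not called.

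Markers of other cell types that carry CD44 or these integrins moved in the same comparisons. In tumor-free Tcf1-/- thymi against controls, 12 of 13 macrophage and monocyte markers, 7 of 8 dendritic cell, 7 of 8 B-cell, 4 of 5 NK-cell and 3 of 7 granulocyte markers rose and 0 fell, with Cd163, Zbtb46 and Pax5 among those not called. Of 11 thymocyte markers 7 fell and 0 rose. Some of these thymocyte markers are also counted with the double-positive or the DN3 genes. Itgax is counted both as an integrin chain and as a dendritic cell marker, and an NK-cell marker is also on the memory-like list. The mean level of the macrophage markers was 7.14 to 8.31 in controls, 9.14 to 10.9 in tumor-free Tcf1-/- thymi and 6.14 to 8.82 in lymphomas. That of the B-cell markers was 6.45 to 6.92, 9.35 to 11.1 and 6.01 to 7.39, that of the dendritic cell markers 6.37 to 6.61, 7.26 to 8.62 and 5.73 to 6.29, and that of the NK-cell markers 6.07 to 6.54, 7.30 to 8.35 and 5.44 to 6.26. The tumor-free Tcf1-/- thymi stood above both other groups in all 4 of these marker levels without overlap. The part of these markers in the rises of Cd44, Itga4 and Itgae was not tested.

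In lymphomas against tumor-free Tcf1-/- thymi, 11 of 13 macrophage and monocyte, 7 of 8 dendritic cell, 7 of 8 B-cell, 4 of 5 NK-cell and 6 of 7 granulocyte markers fell and 0 rose. Against controls 3 of 8 dendritic cell and 3 of 5 NK-cell markers fell, 1 NK-cell and 1 B-cell marker rose, and 0 of 13 macrophage and 0 of 7 granulocyte markers passed by limma (1 each at an unadjusted p under 0.05). Of 11 thymocyte markers 2 rose and 0 fell against tumor-free thymi, and 5 fell and 0 rose against controls. Within the lymphomas the macrophage level was 6.14 and 6.15 in numbers 1 and 2, the 2 arrays that stood apart, and 7.62 to 8.82 in the other 6, where number 6, with Cd44 at 7.38, had the highest. The 3 lymphomas with the highest Cd44, numbers 4, 5 and 3, had macrophage levels of 7.78, 7.62 and 8.57, and number 7, with Cd44 at 5.33, had 8.18. The part of these markers in the lymphoma differences was not tested. Without the 4 arrays that stood apart, the counts for tumor-free Tcf1-/- thymi against controls were 4 of 8 for dendritic cell and 11 of 13 for macrophage markers, with 2 thymic epithelial and 2 endothelial markers higher. For lymphomas against controls 2 thymocyte markers fell in place of 5, 1 macrophage marker fell, and the B-cell and NK-cell markers that rose were no longer called. The gene of the fibroblast list that fell, Thy1, was not called either, and it is also counted with the thymocyte markers. Against tumor-free thymi 4 granulocyte markers fell in place of 6. Lists of fibroblast (4 higher and 1 lower of 9, the lower being Thy1), thymic epithelial (0 and 1 of 11), endothelial (1 and 0 of 4) and erythroid and platelet markers (2 and 0 of 4) complete the count for tumor-free Tcf1-/- thymi against controls. For lymphomas against tumor-free thymi these were 1 and 0, 0 and 4, 0 and 2, and 0 and 2, and against controls 2 and 1, 0 and 2, 0 and 0, and 0 and 0 by limma (1 endothelial and 0 erythroid and platelet markers at an unadjusted p under 0.05).

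**Figure D5:**
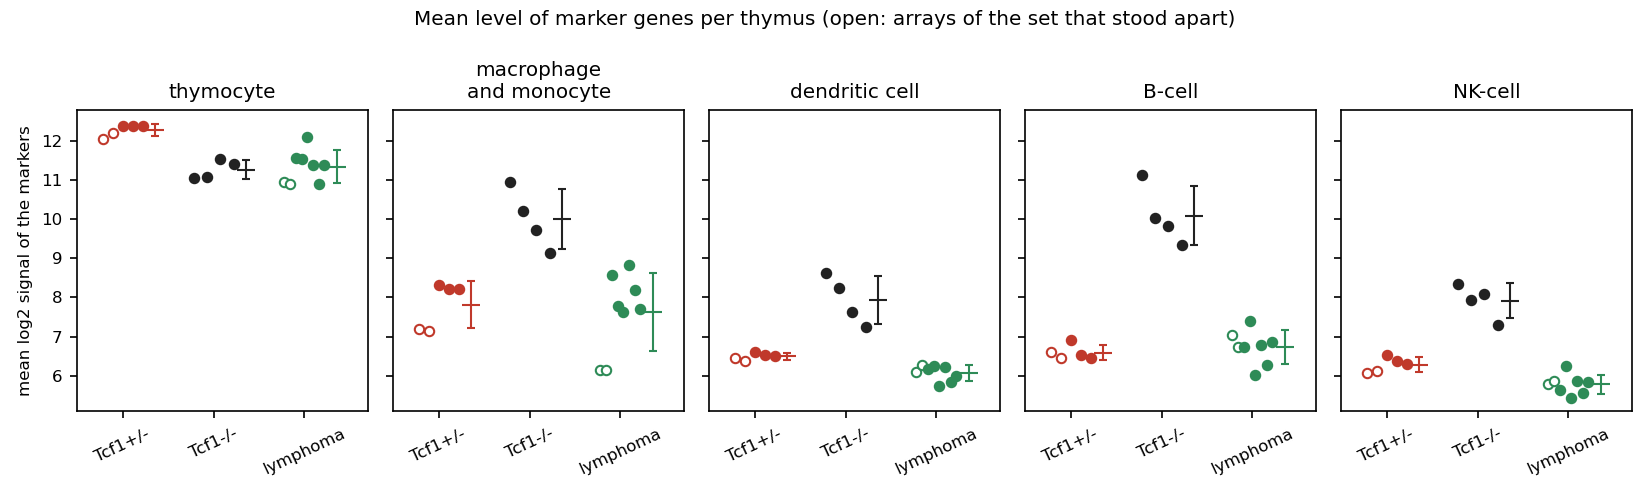
Mean log2 signal of the marker genes of 5 cell types (vertical axis) in each thymus, by group, with mean and SD beside the points; open points are the 4 arrays that stood apart. The tumor-free Tcf1-/- thymi lie above both other groups for macrophage, dendritic cell, B-cell and NK-cell markers, and below the controls for thymocyte markers.

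With Y-linked signal as a covariate, Cd44, Itga4 and Itgae still passed between tumor-free Tcf1-/- and control thymi, Cd44 by 2.30 (limma adjusted p = 0.000398) and Itga4 by 0.99 (limma adjusted p = 0.0122). Of these mice 4 of 5 controls and 4 of 4 tumor-free thymi carried Y-linked signal, so the covariate can say little about sex in this comparison. In the lymphoma comparisons 0 of the 7 genes passed in that fit by limma, while at an unadjusted p under 0.05 there were 3 against tumor-free Tcf1-/- thymi (Itga4, Itgae and Itgb1) and 2 against controls (Itga4 and Itgb2). Within the tumors this covariate rests on lymphomas 4 and 6, the 2 with Y-linked signal, and the part of sex in the lymphoma results was not tested otherwise.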

How the data were processed

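RNA from the thymus of 17 mice was labelled and hybridized to Affymetrix mouse genome arrays, 1 per mouse. The authors obtained the deposited values by Robust Multichip Average (RMA), which removes background, makes the probe signals of all arrays follow the same distribution and gives 1 log2 value per probe set. A change in level common to most genes can therefore be hidden. The deposited values still differed in spread between the arrays that stood apart and the others, as given above. Whether the 17 arrays were normalized in 1 run is not given in the sources used here. The signal of single probes is not in these values, and the number of arrays limits the precision. Groups came from the titles and strains of the samples.

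Of 45101 probe sets, 64 are controls, 34945 carry 1 gene symbol, 932 several and 9160 none, and those with 1 symbol were used, by the probe set of the highest mean per gene. A gene was tested where its signal exceeded the 40th percentile on 4 or more arrays. Each pair of groups was fitted with limma 3.58.1 in R 4.3.3, with Benjamini-Hochberg adjustment over the 13755 tested genes and a threshold of 0.05, and means were compared by exact two-sided permutation of the mice. The fits were tested on simulated data. Genes named are the 7 receptors, up to 4 called genes of each list with the largest change, and the nearest genes in pattern (3 per receptor over all arrays and 5 for Cd44 over the lymphomas), without unnamed transcripts. Il7r and Lyl1 beside the DN1 and DN2 list, the uncalled markers Cd163, Zbtb46 and Pax5, and Itgb7 in lymphomas against controls were named after their values were seen. So were Thy1 beside the fibroblast markers and Flt3 beside the DN1 and DN2 list. The genes and lists were chosen with earlier results of these data known.

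The mouse numbers are shared by the groups, but the titles do not say that mice of the same number belong together. After subtraction of group means, lymphoma and control arrays of the same number correlated at 0.246 to 0.625 in 5 pairs, which by the rule used treats the numbers as pairs, though the arrays that stood apart carry the numbers 1 and 2 and the own number was the closest in 2 of 5. In the other comparisons the correlations ran from -0.286 to 0.12 and the numbers were not taken as pairs. Alternatives were 1 fit over the 3 groups, fits without single mice, the mouse number or the array set as a block, other filters, probe sets, scalings and tests, and Y-linked signal as a covariate. The counts of list genes without the 4 arrays that stood apart were added after seeing the data. Some genes are not reported here.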

Additional observations from a re-analysis of the deposited data

How the results depend on the processing

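Among the 7 genes, Cd44, Itga4 and Itgae were called between tumor-free Tcf1-/- and control thymi in all 9 fits without 1 mouse, without the 4 arrays that stood apart, and under the other scalings and filters. They were also called with the Y-linked covariate, which can say little in this comparison, as given above. The 3 calls came down to 1 (Itgae) in 1 fit of all 17 arrays. The Itga4 call is that of its main probe set, and none of its other probe sets above the filter passed. By the Mann-Whitney U test 0 of the 7 and 0 of all genes passed (3 and 2979 at an unadjusted p under 0.05), and 0.0917 was the smallest adjusted p. The groups did not overlap in these 3 genes, so their ranks were already as far apart as they can be. With groups this small the rank test therefore cannot decide whether the calls hold. Counts of all genes called in this comparison were 3418 with the array set as a block and 1327 at an added log2 difference of 1, in place of 2037. Uncalled differences turned direction for Itgb2 (-0.11 with arrays centred and scaled), Itga6 (-0.14 without the 4 arrays and with the array set as a block, -0.069 to 0.50 without 1 mouse) and Itgal (0.0485 in the mice of shared numbers, -0.14 to 0.20 without 1 mouse).

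For lymphomas against tumor-free Tcf1-/- thymi, 2020 genes and 3 of the 7 were called. The counts were 1014 to 2203 genes without 1 mouse (1014 without tumor-free thymus 1 and 1271 without number 2), 1307 with Abl1 subtracted, 1220 at the added difference of 1, and 387 with the Y-linked covariate, where 0 of the 7 passed. With the mean of all probe sets 5 of the 7 passed, Cd44 and Itgal joining. For lymphomas against controls, 1749 genes and 2 of the 7 were called. Without 1 mouse 0 to 2 of the 7 passed, without the 4 arrays 1 (Itga6), without a filter or with Abl1 subtracted 1 (Itgb2), with the array set as a block or the mean of probe sets 4 (Itga6 and Itgal joining), and with the Y-linked covariate 0. The gene counts were 1039 with Abl1 subtracted, 3753 with the array set as a block, 2872 within the 4 arrays, 1122 with the Y-linked covariate and 854 at the added difference of 1. Itgb1 turned to 0.61 within the 4 arrays and ran from -0.48 to 0.0206 without 1 mouse, and Itgae turned to 0.0558 with the Y-linked covariate. The split of calls into higher and lower depended on the scaling. With arrays centred and scaled it was 1190 and 943, 1237 and 1028, and 825 and 571 in the 3 comparisons, in place of 1390 and 647, 872 and 1148, and 1170 and 579, and without the 4 arrays it was 1410 and 1630, 1262 and 1186, and 748 and 825. The causes were not tested.

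With the mouse number as a block, which uses only mice of shared numbers, lymphomas against controls gave 1785 genes, 1152 of them shared with the unblocked fit, and 4 of the 7 (Itga4, Itga6, Itgal and Itgb2), while the same mice unblocked gave 686 genes and 1 of the 7 (Itga4). In the comparisons whose numbers were not taken as pairs the block gave 1257 genes between tumor-free Tcf1-/- and control thymi, with Itga4 at 1.15 (limma adjusted p = 0.0509) and Itgal at 0.0485, and 584 between lymphomas and tumor-free thymi (951 in the same mice unblocked), with Itgb2 at -2.17 (limma adjusted p = 0.189). In all, 447 of 518 values of the 7 genes under an alternative kept their direction and their side of the threshold. Small differences cannot be settled with 4 to 8 arrays a group.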
